A study of Mus musculus with 22 samples.

Results

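The comparison is between mouse embryonic fibroblasts reprogrammed with the factors Oct4, Sox2 and Klf4 (OSK) in a medium that lacked vitamin C and the same cells in the OSK medium, on days 3 and 7. Its members are 4 of the 22 samples of the series, 1 library of each medium on each day: OSK_minus_vc on days 3 and 7, and OSK on days 3 and 7. They were chosen by the sample titles, which name the medium and the day. The 4 libraries of the other omissions, OSK_minus_bFGF and OSK_minus_GSK3i on days 3 and 7, lent their spread to the test and served as a further comparison. All 8 libraries hold total RNA of passage P2 fibroblasts that carry the OG2 transgene, a reporter in which Oct4 control sequences drive green fluorescent protein, on a mixed background of 129SVJ (1/2), C57B6 (3/8) and CBA (1/8). All 8 were taken 3 or 7 days after a transfection of 2 days. Per the series' design text the media were tested for vitamin C, for basic fibroblast growth factor (bFGF, written bGFG there) and for GSK3 inhibitors, a pair of compounds given as CHIR-99021 and LiCl, and each omission label names only the agent left out. The labels do not give the dose of vitamin C, the number of embryos behind a culture, or whether cells were sorted, so a library stands for a whole culture and fewer cells of a type and less RNA per cell cannot be told apart.

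Vitamin C, or ascorbate, keeps the iron of 2-oxoglutarate-dependent dioxygenases in its reduced state. These enzymes include the prolyl and lysyl hydroxylases that mature collagen, the Tet enzymes that oxidize 5-methylcytosine, the Jumonji histone demethylases and the Egln hydroxylases that mark the hypoxia-inducible factors for destruction. Fibroblasts that receive OSK first silence mesenchymal genes and gain epithelial ones, and a minority later turns on the pluripotency network around Nanog and the endogenous Pou5f1. Interferons act in fibroblasts through transcription factor complexes that bind the interferon-stimulated response element (ISRE) or the gamma-activated site (GAS). Their targets encode antiviral proteins, immunity-related GTPases, the ISG15 conjugation enzymes and the machinery of MHC class I presentation.

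The OSK_minus_vc libraries held 7872278 expected counts on day 3 and 12424293 on day 7, and the OSK libraries held 9226502 and 15420073. With 1 library per medium and day there is no replicate, so the error of the tests is how far differences between media varied between the 2 days. The libraries of the series fall into 2 sets, with the OSK libraries compared here in one and the OSK_minus_vc libraries in the other. Of the counts on Rpsa and its processed pseudogene Rpsa-ps10 together, the pseudogene took 0.124% and 0.37% in the OSK_minus_vc libraries and between 0.143% and 0.272% in the other omissions, but 7.02% and 6.69% in the OSK libraries. The long noncoding RNA Gm26527 had 0 counts in all 6 omission libraries, which in the OSK_minus_vc libraries allows up to 0.375 and 0.232 CPM (3 counts per library, counting error only), but 201 and 1582 counts in the OSK libraries. Lack of vitamin C and library set therefore cannot be told apart in any difference from OSK. The omissions of bFGF and GSK3 inhibitors lie in the set of the OSK_minus_vc libraries, and values against their mean are given beside those against OSK. Xist, the RNA that coats the inactive X chromosome, stood at 147 and 258 CPM (counts relative to the library size, scaled by trimmed mean of M-values) in the OSK_minus_vc libraries and at 74.9 and 44.5 CPM in the OSK libraries, and what moves with it was not tested.

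The labelled cell type was checked on defining markers. The 10 fibroblast markers, among them Col1a1, Thy1 and Pdgfra, were all present and summed to 8484 and 3330 CPM in the OSK_minus_vc libraries, against 8542 and 2661 CPM in the OSK libraries. The 8 markers of pluripotent cells summed to 332 and 617 CPM without vitamin C, against 776 and 944 CPM in OSK. On day 3 nearly all of each sum came from Tfcp2l1, whose levels are given below. Nanog, Esrrb, Dppa5a and Tdgf1 were barely detected on that day in either medium. The 7 macrophage markers summed to 18.7 and 6.49 CPM without vitamin C, against 28.8 and 8.65 CPM in OSK, with most of each sum from Cd68. Of the 5 skeletal muscle markers, Myog and Ckm had no count in any of the 4 libraries.

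Without vitamin C, 42 of 14191 genes tested (0.296%) differed from OSK at an adjusted p under 0.05 in edgeR's quasi-likelihood test, and 36 of them were lower (0.254%) and 6 higher (0.0423%). Among the 36, 7 are on the list of interferon response genes, and Ifi47, Apol9a, Apol9b, Ube2l6 and Phf11d, which are not on it and were grouped here after their values were seen, are known to respond to interferon as well. The 6 higher genes were Leng8, Ccdc88a, Neat1, Rnaset2a, the pseudogene 2610005L07Rik and Gucy1a2. At an unadjusted p under 0.05 the same test gave 961 higher and 821 lower genes, and DESeq2 called 132 higher and 164 lower at the same adjusted threshold. The number of calls rested heavily on single libraries, since it was 1381 without the OSK library of day 3, 130 without that of day 7, 44 and 17 without the OSK_minus_vc libraries of day 3 and day 7, 3 without either OSK_minus_bFGF library, and 50 and 18 without the OSK_minus_GSK3i libraries of day 3 and day 7. It was 6 once each library's trend of log ratio on gene GC content had been removed, when Ifi47, Apol9b, Slc12a8, Gm26527, Rpsa-ps10 and B230369F24Rik kept their call.

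The interferon genes are shown first with the promoter elements that interferon signalling acts on. Of the 7 members of the interferon response list that passed the test, 6 had a promoter in the RefSeq table (build GRCm38.p6), and each of the 6 held the ISRE core (GAAA, any 2 bases, GAAA) on either strand in the 250 bases before its start. Among the 25 tested members of that list with a promoter, 15 held it (60%), beside 3.04% of all 27025 promoters of the same length. The GAS core TTCNNNGAA, which reads the same on both strands, was in 7 of the 25 (28%), beside 7.18% of all promoters. In the following windows of 60 bases, given 5′ to 3′ on the strand of the gene, capitals mark the ISRE core or its reverse complement. They are shown because the windows of the 3 GTPase genes share one arrangement, in which the GAS core starts 11 bases before the ISRE core.
Tgtp1: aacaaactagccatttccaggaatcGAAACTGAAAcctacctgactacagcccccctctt
Tgtp2: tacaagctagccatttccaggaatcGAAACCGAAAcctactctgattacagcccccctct
Igtp: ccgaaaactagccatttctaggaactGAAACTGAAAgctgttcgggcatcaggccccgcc
Gbp2: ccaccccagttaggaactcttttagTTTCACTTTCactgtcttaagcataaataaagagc
Oas3: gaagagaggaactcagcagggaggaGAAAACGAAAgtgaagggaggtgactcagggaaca
Ifit3: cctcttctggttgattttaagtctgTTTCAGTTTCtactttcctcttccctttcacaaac
The windows lie at chr11:48992289-48992348 on the minus strand (Tgtp1), chr11:49064248-49064307 on the minus strand (Tgtp2), chr11:58199496-58199555 (Igtp), chr3:142620579-142620638 (Gbp2), chr5:120777700-120777759 on the minus strand (Oas3) and chr19:34583382-34583441 (Ifit3). The ISRE core starts 77, 70, 34, 59, 75 and 122 bases before the annotated start in that order of genes. Igtp and Ifit3 carry the core in opposite orientation, and Gbp2 in the orientation of Ifit3. Ifi47, Ube2l6 and Phf11d, which also fell, hold neither core in their windows, and a match describes letters only.

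Of the immunity-related GTPases and guanylate-binding proteins, which attack the vacuoles of intracellular pathogens, Ifi47, Tgtp1, Tgtp2, Igtp and Gbp2 were lower without vitamin C, while Irgm1, Iigp1 and Gbp3 did not pass (adjusted p = 0.0964, 0.1003 and 0.1102 in edgeR's test). Ifi47 (chromosome 11, 49076587 to 49096974, mm10) stood at 13.9 and 13.4 CPM on days 3 and 7 without vitamin C, against 62.9 and 72.1 CPM in OSK. Both libraries without vitamin C lay below all 6 others, as for 3.46% of all genes. Ifi47 was at 33.6 and 46.6 CPM without bFGF and at 40.5 and 41.4 CPM without GSK3 inhibitors. The fitted log2 difference from OSK was -2.31 (SE 0.22, adjusted p = 0.00381 in edgeR's quasi-likelihood test), and it passed the threshold under 15 of 16 alternative settings, the exception being the fit without the day block. Ifi47 is not on the interferon list and was named by its rank. Tgtp1 and Tgtp2, a pair of near-identical GTPase genes among which reads cannot be assigned with certainty, together had 82.2 and 118 CPM without vitamin C, against 277 and 500 CPM in OSK. The pair had 140 and 235 CPM without bFGF and 205 and 190 CPM without GSK3 inhibitors, also below OSK on each day. Taken alone, Tgtp1 fell by 1.85 on the log2 scale (SE 0.25, adjusted p = 0.0296 in edgeR's test). Igtp, a regulatory member of the same GTPase family, had 25.6 and 40.3 CPM without vitamin C, against 68.9 and 87.9 CPM in OSK, and passed the test with an adjusted p of 0.0459. Gbp2 had 24.4 and 22.9 CPM without vitamin C, against 78.3 and 59.4 CPM in OSK (log2 difference -1.52, SE 0.21, adjusted p = 0.0301 in edgeR's test).

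Among genes of antiviral effectors, Oas3, Ifit3, Apol9a and Apol9b were lower without vitamin C, while Mx1, Mx2 and Bst2 overlapped between the media. Oas3, which makes the 2-5A messenger that activates RNase L, had 7.5 and 16.0 CPM without vitamin C, against 40.4 and 42.1 CPM in OSK. Ifit3, which belongs to a complex that binds foreign RNA ends, had 9.996 and 10.4 CPM without vitamin C, against 32.6 and 23.9 CPM in OSK. The groups did not overlap for either gene, which also held on the lower side for 15% of all genes and is not independent of the call. The log2 differences were -1.87 (SE 0.28, adjusted p = 0.0316) and -1.45 (SE 0.24, adjusted p = 0.0434) in edgeR's test. Apol9a and Apol9b, a pair of similar apolipoprotein L genes known to respond to interferon in mouse, together had 57.4 and 94.9 CPM without vitamin C, against 181 and 310 CPM in OSK, and each passed the test. Their summed level was 173 and 191 CPM without bFGF and 303 and 348 CPM without GSK3 inhibitors. Both libraries without vitamin C thus lay below the other 6, as for 3.46% of all genes taken singly.

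Of the genes that attach and remove the ubiquitin-like protein ISG15, Usp18 and Ube2l6 were lower without vitamin C. Usp18, the protease that removes ISG15, had 54.6 and 50.7 CPM without vitamin C, against 131 and 112 CPM in OSK (log2 difference -1.20, SE 0.19, adjusted p = 0.037 in edgeR's test). Ube2l6, the conjugating enzyme, had 25.1 and 28.9 CPM without vitamin C, against 68.5 and 139.9 CPM in OSK (log2 difference -1.91, SE 0.28, adjusted p = 0.0316 in edgeR's test). Uba7, the activating enzyme, had 2.0 and 3.71 CPM without vitamin C, against 7.97 and 8.39 CPM in OSK, with a log2 difference of -1.50 (SE 0.36) that did not pass (adjusted p = 0.128 in edgeR's test). Isg15 itself had 44.1 and 54.5 CPM without vitamin C, against 41.4 and 97.8 CPM in OSK, so the day 3 libraries were alike and only those of day 7 differed by more than 1.5-fold.

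**Figure D1:**
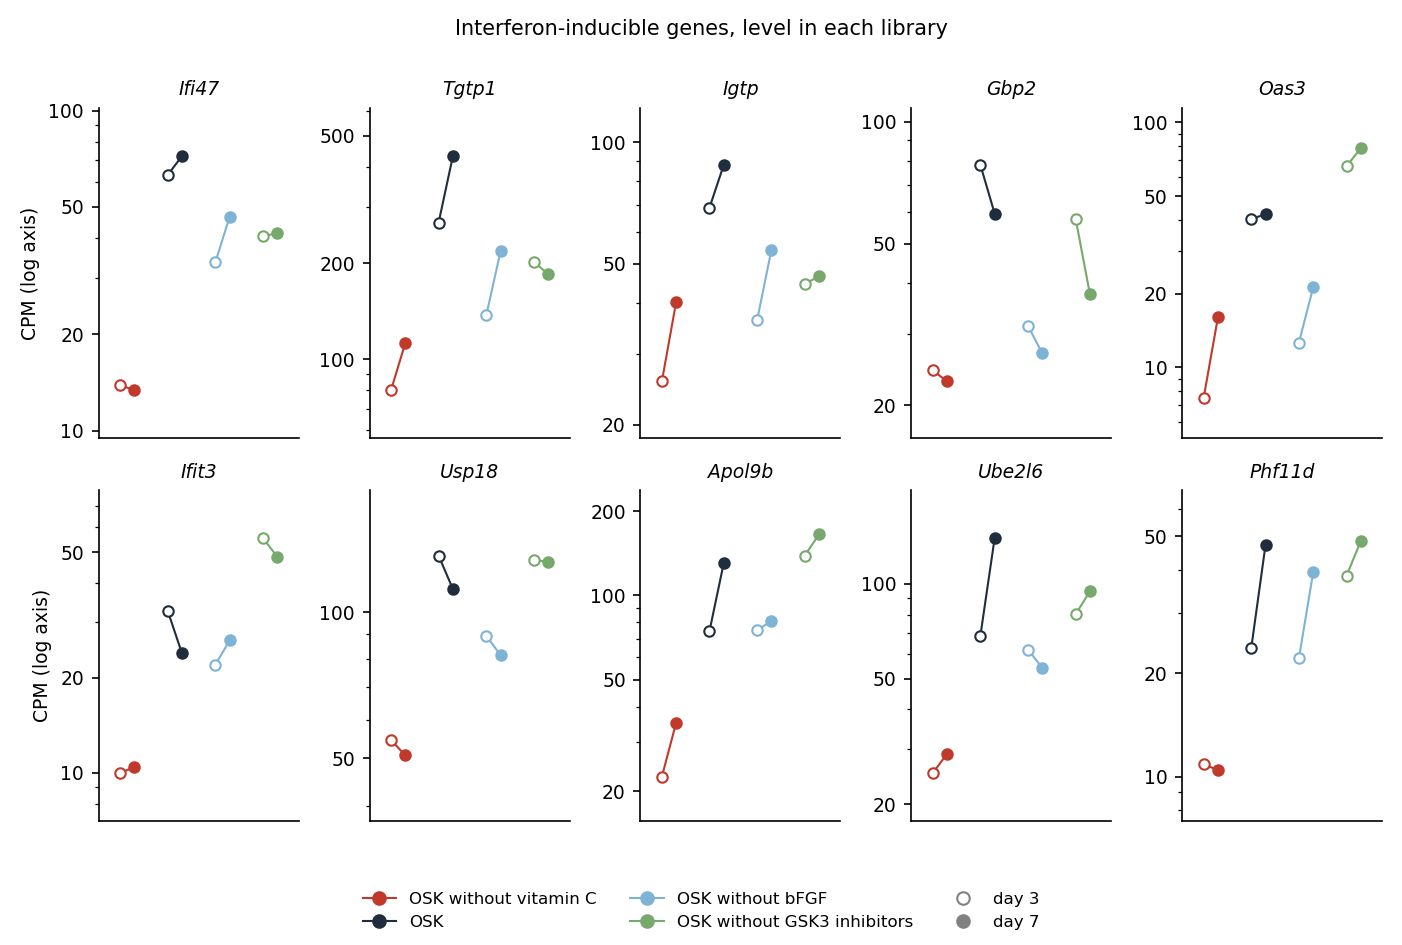
Level of 10 interferon-inducible genes in each of the 8 libraries, in CPM on a log axis; open circles are day 3, filled circles day 7, and a line joins the 2 days of a medium. For Ifi47, Tgtp1, Oas3, Ifit3, Usp18, Apol9b, Ube2l6 and Phf11d both libraries without vitamin C lie below both OSK libraries, as they do for Igtp and Gbp2. This also holds for 15% of all genes, and the 10 genes were drawn from those called lower than OSK, so the separation is not independent of that choice.

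Over the whole interferon response list, 33 of 34 members were tested, 7 were lower and 0 higher. The background was 0.254% of all tested genes called lower. The 7 were Tgtp1, Gbp2, Oas3, Usp18, Ifit3, Tgtp2 and Igtp. At an unadjusted p under 0.05 the test gave 25 lower and 0 higher members, beside 821 lower and 961 higher of all 14191 genes. DESeq2 called 17 lower and 0 higher, beside 164 and 132 of all genes. The median fitted difference of the members was -0.93 on the log2 scale, against 0.01 over all genes tested. Of the 33 differences 31 were negative, beside 6893 of all genes. Both libraries without vitamin C lay below both OSK libraries for 25 of the 33 members, beside 15% of all genes, and below all 6 other libraries for 11, beside 3.46% of all genes. The members summed to 1953 and 2343 CPM without vitamin C, against 3883 and 4345 CPM in OSK. Without bFGF they summed to 2581 and 3102 CPM, also below OSK, and without GSK3 inhibitors to 4124 and 3914 CPM. The 2-fold rule on single days gave 16 lower members of 30 at 5 CPM on day 3, beside 1.86% of all genes, and 14 of 30 on day 7, beside 3%, and no higher one. Irf9, a subunit of the complex that binds the ISRE, had 113 and 101 CPM without vitamin C, against 167 and 131 CPM in OSK, and did not pass (adjusted p = 0.365 in edgeR's test). The 7 members that overlapped between the media were Bst2, Cxcl10, Isg15, Mx1, Mx2, Stat2 and Tlr3, and 1 member, Isg20, lay above both OSK libraries. Only Cxcl10 and Isg20 had positive differences, both at under 3 CPM in all 4 libraries. The count of 7 was 0 with the GC trends removed, where the 7 genes had adjusted p between 0.0637 and 0.0924 in edgeR's test, 0 without either OSK_minus_bFGF library, 0 without the day block and 9 with GC and length trends removed together. The median of the list was -0.86 with the GC trends removed, -0.92 without the day block and -0.91 with both trends removed. This median was -0.805 and -1.002 without the OSK_minus_vc libraries of day 3 and day 7. Without the OSK libraries of day 3 and day 7 it was -0.87 and -0.939. Without the OSK_minus_GSK3i libraries of day 3 and day 7 it was -0.94 and -0.949. The 5 tested members of the macrophage list summed to 23 and 10.9 CPM without vitamin C, against 48.3 and 25.8 CPM in OSK. Most of each sum came from Cd68 and Mpeg1. Of the 5 fitted differences 3 were negative, and the median log2 ratio on day 3 was 0.40. For 1 member both libraries without vitamin C lay below both OSK libraries. Of the 7 defining markers 2 and 3 reached 1 CPM in the 2 media. The part of macrophage genes in the interferon result was not tested, and the cells that express interferon genes cannot be named from bulk RNA.

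Within the set of omission libraries, where Rpsa-ps10 and Gm26527 do not separate the groups, interferon genes were also lower without vitamin C. Both comparisons use the same OSK_minus_vc libraries. Against the mean of OSK_minus_bFGF and OSK_minus_GSK3i, 12 of the 33 members were lower and 1, Tlr3, was higher, beside 3.39% of all genes lower and 9.65% higher. The 12 were Ifit3, Zbp1, Irf7, Oas3, Usp18, Dhx58, Isg15, Oasl2, Tgtp1, Oas2, Oas1a and Stat2. Of the 7 members called against OSK, Gbp2, Igtp and Tgtp2 did not pass here. Their log2 differences were -0.64, -0.48 and -0.75 (adjusted p = 0.0501, 0.128 and 0.312 in edgeR's test). Irf7, a transcription factor that amplifies interferon production, had 51.0 and 40.8 CPM without vitamin C, against 87.8 and 69.0 CPM without bFGF and 155 and 170.3 CPM without GSK3 inhibitors. Zbp1, a sensor of Z-form nucleic acid, had 52.5 and 50.9 CPM without vitamin C, against 105 and 93.0 CPM without bFGF and 183 and 147 CPM without GSK3 inhibitors. With the GC trends removed, 10 members were lower and 0 higher, beside 1.91% of all genes lower and 1.76% higher. The number of lower members in the fit without this correction lay between 5 (without the OSK_minus_vc library of day 7) and 17 (without either OSK library). It was 6 without the OSK_minus_vc library of day 3, 6 and 7 without the OSK_minus_bFGF libraries, and 9 and 10 without the OSK_minus_GSK3i libraries.

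MHC class I presentation genes pointed the same way as the interferon list without passing the test against OSK. All 10 members had negative fitted differences, beside 6893 of all 14191 genes tested. Their median log2 difference was -0.90, and none was called. At an unadjusted p under 0.05 edgeR gave 7 lower members, beside 821 lower of all genes, and DESeq2 called 2, beside 164 lower. On day 7, 5 members were at least 2-fold lower, beside 3% of all genes, and on day 3 there was 1, beside 1.86%. H2-K1, a heavy chain of class I, had 115 and 194 CPM without vitamin C, against 142 and 497 CPM in OSK. Psmb8, a subunit of the immunoproteasome, had 7.62 and 12.3 CPM without vitamin C, against 14.2 and 56.0 CPM in OSK, and Tap1, a subunit of the peptide transporter, had 35.0 and 36.8 CPM, against 64.7 and 84.5 CPM. The light chain B2m overlapped, with 637 and 502 CPM without vitamin C and 488 and 861 CPM in OSK.

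Late pluripotency genes were at lower levels on day 7 without vitamin C, and only Dppa5a passed edgeR's test. Of 17 tested members of 20 listed, 1 was lower and 0 higher, beside 0.254% of all genes lower. At an unadjusted p under 0.05, 5 were lower, beside 821 of all 14191 genes, and DESeq2 called 2 lower, beside 164. Of the 17 differences 16 were negative, beside 6893 of all genes, and the median was -0.68. The members differed by day: the median single-day log2 ratio was 0.00 on day 3 and -1.15 on day 7. On day 3 only 7 of the 17 reached 5 CPM in 1 of both libraries, so most ratios of that day rest on low counts. Of the 7, Klf5 and Tfcp2l1 were at least 2-fold lower and none was higher, beside 1.86% lower and 2.9% higher of all genes. On day 7, 9 of the 17 members at 5 CPM were at least 2-fold lower and none higher, beside 3% lower and 6.75% higher of all genes at that level. The 9 were Nanog, Esrrb, Zfp42, Dppa5a, Dppa2, Dppa3, Prdm14, Nr0b1 and Eras. Nanog, a core factor of the network, had 0 and 39.7 CPM on days 3 and 7 without vitamin C, against 0.455 and 105 CPM in OSK. Zfp42, also called Rex1, had 3.5 and 15.1 CPM without vitamin C, against 6.6 and 83.7 CPM in OSK, with counting intervals on day 7 of 13.0 to 17.4 and 79.2 to 88.4 CPM (exact Poisson, 95%). Esrrb, an orphan nuclear receptor, had 0.5 and 18.2 CPM without vitamin C, against 0.228 and 47.0 CPM in OSK. Dppa5a, an RNA-binding protein of pluripotent cells, had 0.125 and 15.1 CPM without vitamin C, against 0.114 and 98.2 CPM in OSK. Its 1 count in each day 3 library leaves the call to day 7 (log2 difference -2.60, SE 0.40, adjusted p = 0.0336 in edgeR's test), and without the OSK_minus_vc library of day 7 the difference was 0.13 and without the OSK library of day 7 it was -0.97. The call was also lost without either OSK_minus_bFGF library, without the OSK_minus_GSK3i library of day 7, without the day block and with the GC trends removed. The median of the list was -0.01 without the OSK library of day 7 and -0.39 without the OSK_minus_vc library of that day.

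Other members of the network were closer between the media on day 7. Tfcp2l1 had 322 and 432 CPM without vitamin C, against 759 and 428 CPM in OSK, so that its groups differed on day 3 and not on day 7. Nr5a2 had 0.125 and 16.7 CPM without vitamin C, against 0.228 and 20.5 CPM in OSK. None of the 13 tested early pluripotency genes was called. All 13 differences were negative (median -0.45), beside 6893 of all 14191 genes tested. An unadjusted p under 0.05 was reached by 3, beside 821 lower of all genes, and DESeq2 called 1, beside 164 lower. Gdf3, a growth factor of the TGF-beta family, came closest, with 4.62 and 30.4 CPM without vitamin C, against 17.99 and 143 CPM in OSK (log2 difference -2.10, SE 0.36, adjusted p = 0.0577 in edgeR's test). Sall4 had 5.62 and 85.9 CPM without vitamin C, against 9.45 and 147 CPM in OSK, and Tdgf1, the Nodal co-receptor, had 0 and 9.9 CPM, against 0.228 and 28.3 CPM.

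Against the other omissions the order was reversed for several of these genes. Of the late list, 4 members were higher without vitamin C and 0 lower, beside 9.65% of all genes higher, and the median was 0.90. They included Dppa5a, Esrrb and Nr5a2. On day 7 Nanog had 39.7 CPM without vitamin C, against 10.9 CPM without bFGF and 19.5 CPM without GSK3 inhibitors, a difference that did not pass (adjusted p = 0.0977 in edgeR's test). With the GC trends removed 3 late members were higher. Without the OSK_minus_vc library of day 7, or without the OSK_minus_bFGF library of day 7, no late member was called, and without the OSK_minus_GSK3i library of day 7 there was 1. The levels without vitamin C therefore lay between those of OSK and those of the other omissions on day 7 for Nanog, Esrrb, Dppa5a and Nr5a2. Zfp42, at 15.1 CPM without vitamin C, stood at 5.99 CPM without bFGF and at 15.1 CPM without GSK3 inhibitors.

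**Figure D2:**
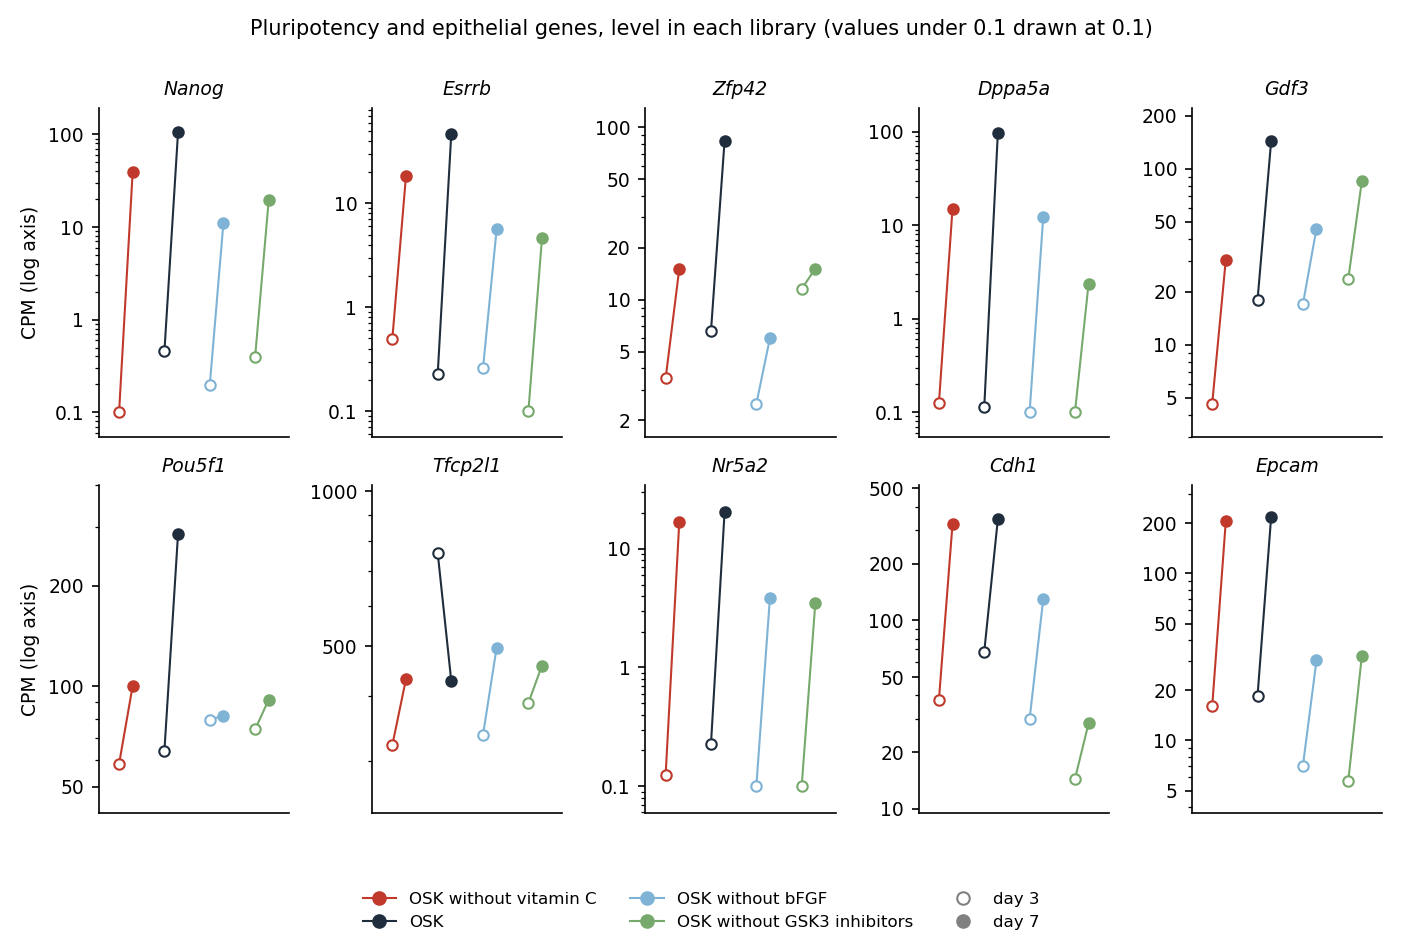
Level of 8 pluripotency and 2 epithelial genes in each of the 8 libraries, in CPM on a log axis; open circles are day 3, filled circles day 7, and values under 0.1 CPM are drawn at 0.1. On day 7 Nanog, Esrrb, Zfp42, Dppa5a, Gdf3 and Pou5f1 are lower without vitamin C than in OSK, while Cdh1 and Epcam are close to OSK and above both other omissions.

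Epithelial genes did not differ from OSK by the test. None of 28 members was called, none had an unadjusted p under 0.05, DESeq2 called none, and the median difference was 0.09. Cdh1, or E-cadherin, had 37.9 and 324 CPM without vitamin C, against 68.3 and 344 CPM in OSK. Epcam had 16.0 and 206 CPM without vitamin C, against 18.6 and 218 CPM in OSK, with a fitted log2 difference of -0.13 (SE 0.35). Esrp1, a splicing regulator of epithelia, had no count on day 3 in either medium and 19.7 CPM on day 7 without vitamin C, against 14.5 CPM in OSK. A p that misses the threshold does not show that the levels were the same. Against the other omissions 14 epithelial genes were higher and 0 lower, with a median of 1.72, beside 9.65% of all genes higher, and 10 were higher with the GC trends removed (median 1.89), beside 1.76% of all genes. Epcam was at 30.1 CPM without bFGF and at 32.0 CPM without GSK3 inhibitors on day 7. The number of higher members was 2 without the OSK_minus_vc library of day 7, 6 and 9 without the OSK_minus_bFGF libraries of day 7 and day 3, 7 and 18 without the OSK_minus_GSK3i libraries of day 7 and day 3, and between 13 and 15 without any of the other 3 libraries.

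Fibroblast and matrix genes were not called against OSK either. None of 32 tested fibroblast genes passed, and 2 had an unadjusted p under 0.05 on the higher side, beside 961 of all 14191 genes. DESeq2 called none, and the median difference was 0.27. Col1a1 had 619 and 321 CPM without vitamin C, against 694 and 337 CPM in OSK. On day 7 Fn1, fibronectin, had 2943 CPM without vitamin C, against 870 CPM in OSK, and Lox, a collagen crosslinking enzyme, had 76.2 CPM, against 38.01 CPM, while on day 3 the media were within 1.5-fold for both. Of 24 matrix assembly genes none passed (4 higher at an unadjusted p under 0.05, DESeq2 called 1), and the median was 0.27. Against the other omissions 10 fibroblast genes and 11 matrix genes were lower and none higher, with medians of -0.56 and -1.22, beside 3.39% of all genes lower. With the GC trends removed 6 fibroblast and 8 matrix genes were lower, beside 1.91% of all genes. Pdgfrb had 26.4 and 31.4 CPM without vitamin C, against 122 and 127 CPM without bFGF and 67.7 and 76.3 CPM without GSK3 inhibitors. Without the OSK_minus_vc libraries of day 3 and day 7 the lower genes numbered 4 and 3 of the fibroblast list and 7 and 4 of the matrix list. Without the OSK_minus_bFGF libraries they numbered 4 and 5, and 7 and 9. Without the OSK_minus_GSK3i libraries they numbered 12 and 4, and 13 and 9, and without either OSK library 16 and 13.

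**Figure D3:**
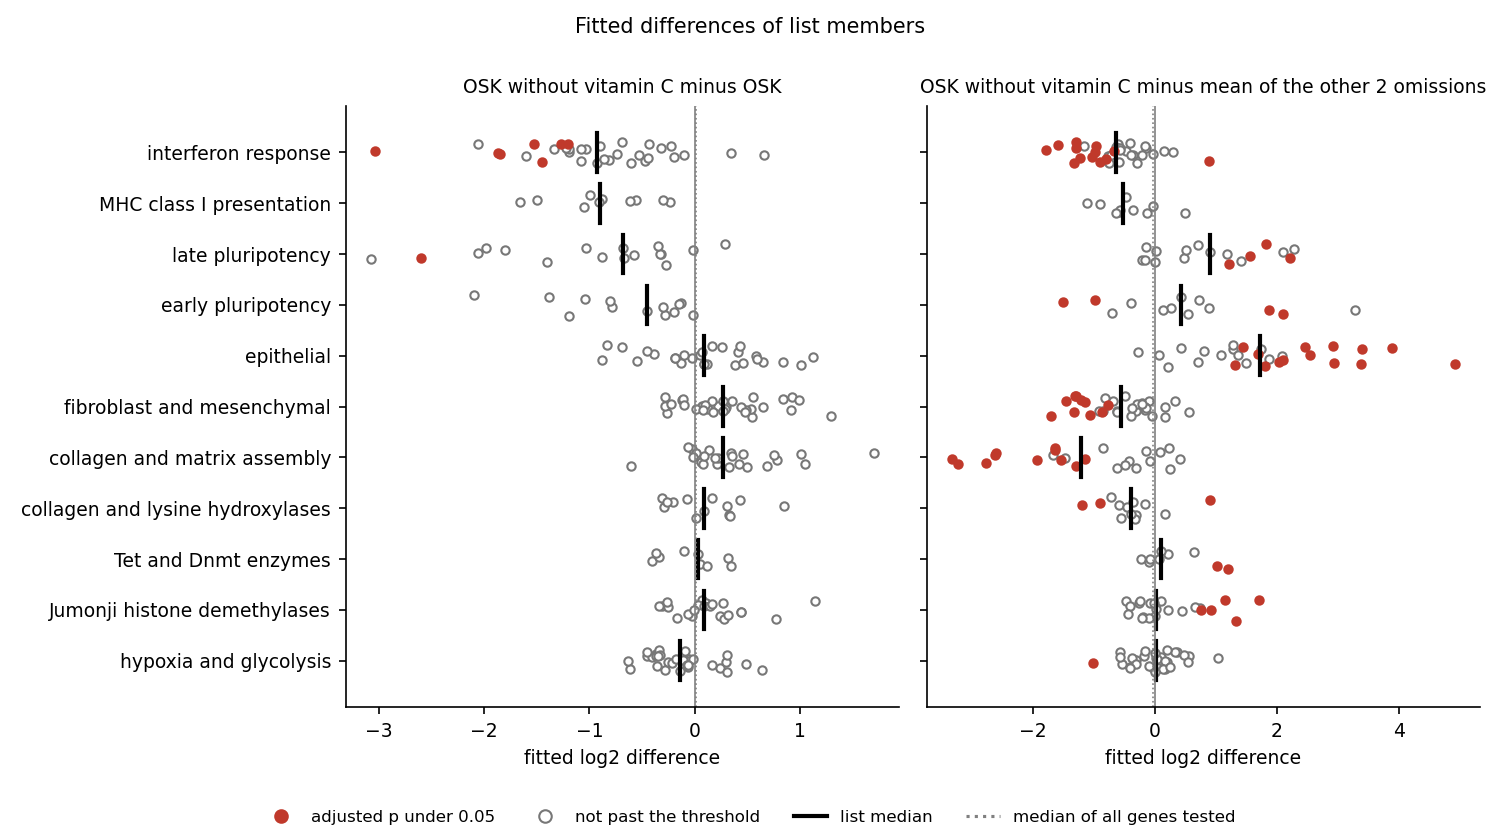
Fitted log2 differences of the tested members of 11 gene lists (1 point per gene), from OSK on the left and from the mean of the other 2 omissions on the right; filled points passed the adjusted threshold of 0.05, bars are list medians and the dotted line is the median of all genes tested. The interferon list is shifted below 0 in both panels (medians -0.93 and -0.64), the late pluripotency list lies below 0 on the left (-0.68) and above 0 on the right (0.90).

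Genes of enzymes that use vitamin C, and of some of their partners, were not called against OSK by edgeR. None of 13 collagen and lysine hydroxylases and partners, 9 genes of a list that holds the Tet enzymes together with Dnmt and other DNA methylation genes, which do not use vitamin C, 23 Jumonji demethylases and 20 other 2-oxoglutarate dioxygenases passed edgeR's test. At an unadjusted p under 0.05 they gave 0, 0, 1 and 1 genes, beside 961 higher and 821 lower of all 14191 genes. DESeq2 called 1, the Jumonji gene Kdm6b, beside 132 higher and 164 lower of all genes. Kdm6b, which removes methyl groups from histone H3 lysine 27, had 102 and 83.9 CPM without vitamin C, against 63.9 and 26.1 CPM in OSK (adjusted p = 0.11 in edgeR's test). Tet1 had 6.87 and 40.0 CPM without vitamin C, against 4.21 and 45.7 CPM in OSK, and Tet2 had 153 and 179 CPM, against 128 and 131 CPM. P4ha1, the catalytic subunit of prolyl 4-hydroxylase, had 67.6 and 51.9 CPM without vitamin C, against 51.5 and 54.3 CPM in OSK. Slc23a2, the ascorbate transporter with the higher level of the pair, had 51.0 and 65.9 CPM without vitamin C, against 82.3 and 52.3 CPM in OSK. Of 31 hypoxia and glycolysis genes none passed (2 lower at an unadjusted p under 0.05, DESeq2 called 0), and the median was -0.14. Against the other omissions Tet1 and Tet2 were higher (2 of 9), as were the Jumonji genes Kdm4c, Kdm5d, Kdm6a, Kdm7a and Uty (5 of 23). Plod2 (1 of 13) and Alkbh8 (1 of 20) were higher too, beside 9.65% of all genes. P3h2 and P3h3 (2 of 13) and the hypoxia-inducible hydroxylase gene Egln3 were lower, beside 3.39%. Kdm5d and Uty lie on the Y chromosome, and other Y-linked genes moved with them. Ddx3y had 59.7 and 73.3 CPM without vitamin C, against 17.5 and 39.6 CPM without bFGF and 6.73 and 27.5 CPM without GSK3 inhibitors (log2 difference 1.83, adjusted p = 0.00346 in edgeR's test), and Eif2s3y was higher as well (log2 difference 1.53, adjusted p = 0.00175 in edgeR's test). The part of the sex of the embryos in these values was not tested. With the GC trends removed, 1 gene of the Tet and Dnmt list and no hydroxylase, Jumonji, other dioxygenase or hypoxia gene was called there.

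Genes known to depend on DNA methylation for silencing gave few measurements. Of 36 listed germline genes in the files, 9 passed the filter on low counts and none was called. At an unadjusted p under 0.05, 2 were lower and 1 higher, beside 821 and 961 of all 14191 genes. DESeq2 called 2 lower, beside 164 of all genes. Piwil2, which guides transposon silencing in germ cells, had 0 and 2.01 CPM without vitamin C, against 2.85 and 14.8 CPM in OSK (log2 difference -3.12, SE 0.61, adjusted p = 0.0721 in edgeR's test). Of 7 tested genes of the imprinted Dlk1-Meg3 cluster on chromosome 12 none was called by edgeR (2 higher at an unadjusted p under 0.05, DESeq2 called 0). Meg3, its maternally expressed noncoding RNA, had 167 and 300.4 CPM without vitamin C, against 82.1 and 179 CPM in OSK (adjusted p = 0.251 in edgeR's test), and Rian, a further noncoding RNA of the cluster, overlapped, with 141 and 241 CPM, against 147 and 331 CPM. Wdr25 (chromosome 12, 108893631 to 109028452, mm10), whose neighbour in the annotation is the cluster gene Begain, was lower, with 14.9 and 12.7 CPM without vitamin C, against 40.1 and 41.0 CPM in OSK (log2 difference -1.57, SE 0.23, adjusted p = 0.0316 in edgeR's test).

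Further lower genes have other roles. Slc12a8, a solute carrier, had 4.25 and 7.27 CPM without vitamin C, against 16.96 and 38.1 CPM in OSK (log2 difference -2.21, SE 0.27, adjusted p = 0.0195 in edgeR's test), and it was at 14.7 to 30.6 CPM in the other omissions. Vnn3, a pantetheinase, had 1.5 and 3.63 CPM without vitamin C, against 5.58 and 15.1 CPM in OSK. Tlr2, a receptor of bacterial lipopeptides, had 22.4 and 19.8 CPM without vitamin C, against 51.8 and 85.4 CPM in OSK. Lifr, the receptor of leukaemia inhibitory factor, had 55.6 and 86.6 CPM without vitamin C, against 123 and 205 CPM in OSK, and lay at 54.3 to 100.4 CPM in the other omissions, which overlap the levels without vitamin C. Morc1, needed for transposon silencing in the male germ line, had 2.12 and 14.9 CPM without vitamin C, against 12.3 and 73.1 CPM in OSK. Against the mean of the other omissions its log2 difference was -0.25 and did not pass (adjusted p = 0.624 in edgeR's test). Mpeg1, a pore-forming protein of macrophages, had 4.37 and 3.4 CPM without vitamin C, against 20.3 and 16.5 CPM in OSK, and was the only one of 5 tested macrophage genes to pass. The other lower genes with a coding annotation were Avil, Ddc, Dusp27, Gpr179, Phf11d, Rdh16, Ubfd1, Unc79, 1700061G19Rik and 4930550L24Rik. Hdac4 was called under an identifier that has no place in the annotation used here, while the annotated Hdac4 was not called, and reads may be split between them.

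Some of the 36 lower genes follow the library sets. Rpsa-ps10 had 1.62 and 5.26 CPM without vitamin C, against 96.5 and 145 CPM in OSK, and was at 1.58 to 4.9 CPM in the other omissions. Gm26527, B230369F24Rik and Tmem254c were likewise low in all 6 omission libraries, B230369F24Rik at 1.9 to 3.66 CPM in the other omissions, against 19.01 and 23.7 CPM in OSK. Gm26735, a long noncoding RNA, was lower too. Rpl9-ps7, a processed ribosomal pseudogene, had 0 and 0.928 CPM without vitamin C, against 23.9 and 34.4 CPM in OSK, but 59.4 and 56.3 CPM without bFGF. Of the 36 lower genes, 20 were also lower than the mean of the other omissions, beside 3.39% of all genes, and 16 were with the GC trends removed. Dppa5a was the 1 called gene that passed there in the opposite direction. Since both comparisons contain the OSK_minus_vc libraries, these counts are not independent.

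Among the 6 higher genes, Ccdc88a, Gucy1a2, Leng8 and 2610005L07Rik were above all 6 other libraries in both libraries without vitamin C, and only Ccdc88a and Gucy1a2 by over 1.5-fold. The share over all genes was 3.69%. The 6 genes were picked by the test against OSK, whose libraries are among those compared, so this position is not independent of the call. Ccdc88a, or girdin, an actin-binding protein, had 59.0 and 64.3 CPM without vitamin C, against 18.2 and 26.8 CPM in OSK (log2 difference 1.49, SE 0.23, adjusted p = 0.0336 in edgeR's test), and 17.7 to 29.3 CPM in the other omissions. Gucy1a2, a subunit of soluble guanylate cyclase, had 9.87 and 15.8 CPM without vitamin C, against 2.96 and 2.39 CPM in OSK. Neat1, the scaffold RNA of paraspeckles, had 648 and 537 CPM without vitamin C, against 203 and 216 CPM in OSK, and Leng8 had 173 and 195 CPM, against 65.6 and 72.0 CPM. Both were also above OSK in the other omissions, Neat1 at 311 to 651 CPM and Leng8 at 132 to 164 CPM. Rnaset2a had 61.2 and 53.9 CPM without vitamin C, against 15.8 and 21.4 CPM in OSK, but together with its near-identical neighbour Rnaset2b the level was 90.6 and 107 CPM, against 82 and 96.4 CPM, and how reads were shared between the pair was not tested. All 6 single-day ratios to OSK and the other omissions were positive for 8.54% of all genes and negative for 8.44%, and Akap9, Ankrd12, Zfp292 and Zfp971 were among the positive ones whose smallest ratio was largest. Ankrd12 had 69.0 and 88.7 CPM without vitamin C, against 26.8 and 37.5 CPM in OSK, and missed the threshold (adjusted p = 0.0503 in edgeR's test). In the comparison with the other omissions the genes with the lowest GC content (the bottom 20%) had a median log2 difference of 0.65 and those with the highest (the top 20%) -0.27, and with that trend removed none of the 6 higher genes was called in either comparison. Their log2 differences from OSK were then 1.28 to 2.20, with adjusted p between 0.0679 and 0.107 in edgeR's test, and with GC and length trends removed together 4 of the 6, Ccdc88a, Leng8, Neat1 and Rnaset2a, were called.

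The reprogramming factors were measured as transcripts of the genes, and these counts do not separate delivered from endogenous copies. None of the 3, nor Myc, was called by edgeR. At an unadjusted p under 0.05, 2 were higher, beside 961 of all 14191 genes, and 2 were higher in DESeq2, beside 132. Klf4 had 794 and 699.6 CPM without vitamin C, against 398 and 409 CPM in OSK, and Sox2 had 462 and 362 CPM, against 192 and 241 CPM. The other omissions lay at 797 to 1206 CPM for Klf4 and at 342 to 623 CPM for Sox2, so all 6 omission libraries were above OSK. Pou5f1 had 58.6 and 100.3 CPM without vitamin C, against 64.2 and 286 CPM in OSK. It was level on day 3, and on day 7 the other omissions, at 81.7 and 91.2 CPM, were close to the library without vitamin C.

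On single days, with no test, 325 of 11215 genes at 5 CPM (2.9%) were at least 2-fold higher without vitamin C on day 3 and 209 (1.86%) lower. On day 7 there were 780 of 11548 (6.75%) higher and 347 (3%) lower. On day 3, the same rule gave 9.58% higher and 3.84% lower against OSK_minus_bFGF and 9.49% higher and 4.08% lower against OSK_minus_GSK3i, and on day 7 5.58% higher and 3.66% lower against OSK_minus_bFGF and 11.6% higher and 6.56% lower against OSK_minus_GSK3i. Of 10943 genes measured on both days, 68 were higher and 79 lower on both. Several of the largest day 7 ratios on the higher side came from genes near 0 in the OSK library of that day only. Bmpr2, a receptor of bone morphogenetic proteins, had 65.3 CPM without vitamin C, against 3.55 CPM in OSK on day 7, and 69.3 CPM, against 46.0 CPM, on day 3. Cbl, a ubiquitin ligase, had 93.2 CPM without vitamin C, against 4.9 CPM in OSK on day 7, and 60.9 CPM, against 71.1 CPM, on day 3. Day 7 ratios were also higher for genes with longer transcripts, with a median of -0.21 in the shortest 20% of genes and 0.41 in the longest 20%.

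**Figure D4:**
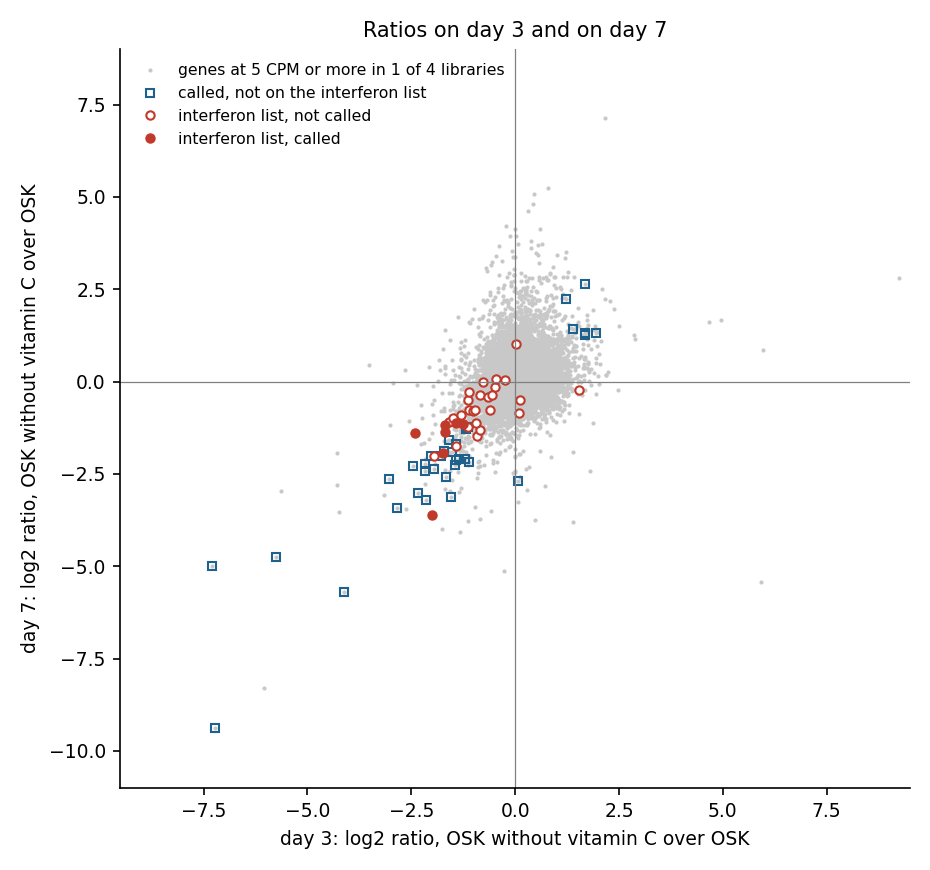
Log2 ratio of OSK without vitamin C over OSK on day 3 (horizontal) and on day 7 (vertical) for the 11817 genes at 5 CPM or more in at least 1 of the 4 libraries, with the 42 called genes and the interferon list marked. Called genes lie in the lower left and upper right, where both days have the same sign, except Dppa5a, which is near 0 on day 3 and below -2 on day 7. The test takes its error from the variation between the 2 days, so it favours genes whose days agree, and this position follows from the selection.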

How the data were processed

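RNA was measured by sequencing of TruSeq libraries, per the labels' protocols. Per the submitters' processing notes, the authors estimated expression with RSEM 1.2.4 on mm10 for the 20 libraries with such files, which include the 8 analysed; no source used here names the aligner or says whether counting used strand. The deposited files give expected counts per gene, in which RSEM shares ambiguous reads among genes, and TPM. A deposited series table of normalized values was read as a score and used only for 87 gene symbols; 23598 came from GENCODE M21.

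Expected counts were rounded. edgeR 4.0.16 (R 4.3.3) was run on 8 libraries (OSK and its 3 omissions, days 3 and 7) with TMM, filterByExpr by medium, medium and day as terms (3 residual degrees of freedom), robust quasi-likelihood tests and Benjamini-Hochberg adjustment over 14191 genes at 0.05; the contrast with the mean of the other omissions came from the same model. CPM are counts scaled by total times TMM factor. Single-day ratios used a prior count of 2, at least 5 CPM in 1 of both libraries and 2-fold. Alternatives were DESeq2 1.42.0, RLE factors, no filter, 4 libraries, no day block, limma 3.58.1 on log2(TPM + 1), GC and length trends removed (99.3% of tested genes have a GC value) and leaving out each library; those that remove length trends, and those of the second contrast, were added after seeing the data. The scripts were tested on simulated data. Totals were 7872278 to 15420073 counts in the 4 libraries compared; intervals cover counting error only.

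The members, gene lists and tests were chosen with earlier results of these data known. Named genes are the factors, the 10 largest called differences per direction at 5 CPM, the 10 per direction with the largest smallest ratio over 6 library pairs, up to 6 list members with the smallest p, and the 5 largest single-day ratios per direction at 10 CPM; other members were named after their values were seen. Some results are not reported here.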

Additional observations from a re-analysis of the deposited data

Results flagged for a closer look

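In 4 genes the ratio of OSK without vitamin C over OSK was at least 2-fold in one direction on day 3 and at least 2-fold in the other on day 7; with 1 library per medium and day the difference between the days was not tested. Adam12, a metalloprotease, had 7.75 and 20.6 CPM on days 3 and 7 without vitamin C, against 16.6 and 6.71 CPM in OSK, so its log2 ratio was 2.68 higher on day 7. Adgrd1, an adhesion receptor, had 35.4 and 86.7 CPM without vitamin C, against 81.2 and 39.9 CPM in OSK, a log2 ratio 2.31 higher on day 7. Cubn, the cubilin receptor, had 7.75 and 7.19 CPM without vitamin C, against 16.96 and 2.26 CPM in OSK, a log2 ratio 2.72 higher on day 7. The noncoding RNA Gm26883 had 9.12 and 0 CPM without vitamin C, against 0 and 6.39 CPM in OSK, and day 7 minus day 3 of its log2 ratio was -11.33, a value that depends on the prior count.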

How the results depend on the processing

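The 42 calls against OSK (6 higher, 36 lower) became 296 (132 and 164) in DESeq2, 139 (47 and 92) without the filter, 131 (45 and 86) with 4 libraries, 78 (14 and 64) with GC and length trends removed, 7 (1 and 6) in limma on log2(TPM + 1), 6 (0 and 6) with GC trends removed and 0 (0 and 0) without the day block, where 466 genes were higher and 439 lower at an unadjusted p under 0.05. RLE factors gave 33. Leaving out 1 library gave 3 to 1381 calls (0 to 938 higher, 3 to 443 lower). With the mean of the other omissions in place of OSK there were 1850 (1369 higher, 481 lower), which became 521 (250 and 271) with GC trends removed, 905 (391 higher) with GC and length trends removed, 2084 in DESeq2, and 620 to 3366 (482 to 2213 higher, 122 to 1153 lower) without 1 library. The 7 lower interferon members became 17 (DESeq2), 15 (no filter), 11 (4 libraries), 4 (RLE), 0 (no day block), 0 (limma), 0 (GC trends removed), 9 (GC and length trends removed), 12 (other omissions) and 0 to 18 without 1 library. The late pluripotency median of -0.68 reversed to 0.90 against the other omissions, and Dppa5a reversed to 0.13 without the OSK_minus_vc library of day 7 (-2.70 to 0.13 over the libraries left out). On single days, 1.5-fold gave 1254 higher and 826 lower on day 3 and 1779 and 1281 on day 7; against OSK_minus_bFGF there were 1083 and 434 on day 3 and 645 and 423 on day 7, and against OSK_minus_GSK3i 1075 and 462 on day 3 and 1349 and 765 on day 7. The cause of these changes was not tested. The media were paired by day, with day as the block, also in the fit of 4 libraries; the labels give no replicate numbers that could pair libraries otherwise. Low counts on day 3 limit the late pluripotency genes.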
